A study of Mus musculus with 21 samples.

Results

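The cells described here were mouse embryonic fibroblasts (MEFs) that received PU.1 (the product of Spi1), Irf4 and Prdm1, a factor set called PIP. They were chosen by their library label, as all cells of the day 3 and day 9 PIP libraries, pooled. They numbered 2512 of the 25991 cells in the series (9.66%), with 1326 cells at day 3 and 1186 at day 9. PIP cells carried the genotype Clec9aCre/Cre Rosa26stopflox-tdTomato/tdTomato, were transduced with lentivirus and cultured on gelatin, and were sorted as live and tdTomato+ at 3 or 9 days after transduction. In that reporter, Cre made from the Clec9a locus removes a stop cassette, so tdTomato marks a cell in which the locus has been active at some time. The series delivered several such factor sets to fibroblasts and profiled 21 libraries as single cells with the 10x 3′ assay, which counts transcripts by unique molecular identifiers (UMIs). PIP was set against 2 libraries of wildtype MEFs (2045 and 1728 cells), sorted as live and neither transduced nor carrying the reporter alleles. It was also set against 1 library of wildtype splenic type 2 conventional dendritic cells (cDC2, 1881 cells), sorted as CD11c+MHC-II+CD11b+. The factor set most like it was PI4, which is PU.1 and Irf4 without Prdm1 in the same reporter fibroblasts (712 cells at day 3 and 418 at day 9).

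Dendritic cells (DCs) take up antigen, display it on MHC class II and activate T cells, and cDC2 depend on Irf4. PU.1 is an ETS-family factor that many myeloid and B cell genes require, and it recruits Irf4 or Irf8 to composite DNA sites. Prdm1 encodes BLIMP1, a repressor best known for ending the B cell programme in plasma cells, where it silences Ciita, Pax5 and Bcl6. In osteoclasts, the bone-resorbing cells of the myeloid lineage, Prdm1 acts downstream of the signals that also induce cathepsin K. Fibroblasts make collagens and other matrix proteins and do not express Ptprc (CD45), the general leukocyte marker.

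Depth was high in PIP. The PIP libraries held 76033948 and 84879042 UMIs, against 39630573 and 47984915 in MEF, 23357225 in cDC2, and 16767937 and 7882881 in PI4. Median UMIs per cell were 57205 and 75762 in PIP, 18100.0 and 25928 in MEF, 11957 in cDC2, and 4022 and 7610.5 in PI4. The PIP libraries shared 0 cell barcodes with each other. Levels are given as CPM, a gene's UMIs scaled to the total of its library, and intervals are exact Poisson or binomial 95% intervals that cover counting error only. Differences were tested with edgeR's quasi-likelihood test on counts summed per library, in 1 fit of 7 libraries (PIP, PI4 and MEF with 2 each, cDC2 with 1), with calls made where p, after Benjamini-Hochberg adjustment over all genes tested, was under 0.05. The 2 days stood as the replicates of PIP, and the single cDC2 library was assumed to vary like the others. No source states that the libraries came from separate animals or cultures, so the p-values measure the spread between these libraries. Virus, reporter genotype and the tdTomato sort all go with PIP against MEF and cannot be told apart; tissue, culture and sex go with PIP against cDC2 in the same way. Of 1881 cDC2 cells, 98.6% held Xist and no Y-linked UMI and 0 held Y-linked UMIs alone (an allowed share of up to 0.196%, exact 95% binomial interval), against 37.7% and 39.0% of PIP cells with Y-linked UMIs alone. In summed counts, fewer cells expressing a gene and fewer transcripts per cell cannot be told apart.

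To check the library labels, the 3 delivered factors come first. Prdm1 stood at 85.4 CPM (95% interval 83.4 to 87.5) in PIP at day 3 and 66.2 CPM (64.4 to 67.9) at day 9, at 9.08 and 9.00 CPM in MEF, at 2.09 and 1.65 CPM in PI4 and at 3.00 CPM in cDC2. The PIP libraries were the highest of all 21 libraries for Prdm1, and the next was 28.4 CPM. Against MEF the difference was 3.29 ± 0.22 on the log2 scale (edgeR adjusted p = 6.96e-04; 0.0698 with all 21 libraries in the fit). Spi1 was at 26.2 and 21.6 CPM and Irf4 at 18.5 and 16.6 CPM in PIP, and both had 0 UMIs in MEF. All 3 delivered factors were therefore present in both PIP libraries, with Spi1 well under its 587 CPM in cDC2 and Irf4 nearer to its 30.9 CPM there. The deposited counts do not separate transcripts of the lentiviral copy from those of the cell's own gene. With no thinning of the counts, Prdm1 was detected in 91.3% of PIP cells at day 3 and 92.0% at day 9, against 13.2% and 16.0% of MEF cells. Clec9a, whose locus drives the reporter, had 0 UMIs in both PIP libraries, which allows at most 0.0395 and 0.0353 CPM, and was at 9.08 CPM in cDC2.

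Of the genes described here, the most abundant in PIP was Ccl8, which encodes a CC chemokine (MCP-2) that attracts monocytes and other leukocytes. Ccl8 stood at 69734 CPM (95% interval 69675 to 69794) in PIP at day 3 and 86839 CPM (86776 to 86902) at day 9. It was at 123 and 135 CPM in MEF and had 0 UMIs in cDC2, which allows at most 0.128 CPM. This 1 gene made up 6.97% and 8.68% of all PIP UMIs. Ccl8 was higher in PIP than in MEF by 9.46 ± 0.27 on the log2 scale (SE, edgeR adjusted p = 2.82e-04) and at least 609519.7-fold higher than in cDC2 (adjusted p = 1.29e-04). Both PIP libraries exceeded the other 19 libraries of the series, of which the highest was PI4 at day 9 with 24094 CPM.

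Ccl12, a neighbouring CC chemokine gene that acts on the receptor Ccr2, stood at 2255 and 3388 CPM in PIP, at 0.177 and 0.104 CPM in MEF and at 0 in cDC2. Its difference from MEF was 14.49 ± 0.72 on the log2 scale (edgeR adjusted p = 4.67e-04), and it was at least 21968-fold higher than in cDC2. The Ccl12 level was not particular to PIP, since libraries of fibroblasts with other factor sets reached 2614 and 2048 CPM. Ccl8 and Ccl12 are similar in sequence, and how reads that match both were counted was not tested.

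Ctsk, the collagen-degrading protease cathepsin K of osteoclasts, was at 4302 and 2385 CPM in PIP, at 96.1 and 97.9 CPM in MEF and at 0.0856 CPM in cDC2. The difference from MEF was 5.34 ± 0.39 (log2, edgeR adjusted p = 8.71e-04), and 4.75 without the day 3 library (adjusted p = 0.00199). With all 21 libraries the adjusted p was 0.0941. Against cDC2, with 2 UMIs there, the ratio of pooled levels was 38432 (95% counting interval 10639 to 317347). Both PIP libraries again exceeded every other library, the next being fibroblasts with PU.1 and Irf8 at day 3 with 1982 CPM.

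Cd209a, a C-type lectin receptor of the DC-SIGN family and a cDC2 marker in mice, was at 80.6 CPM (95% interval 78.6 to 82.6) in PIP at day 3 and 426 CPM (421 to 430.3) at day 9. It had 0 UMIs in both MEF libraries and was at 342 CPM in cDC2. Cd209a was not confined to cDC2 among the splenic cells, since plasmacytoid DCs held it at 290.5 CPM. Fibroblasts with another factor set (SI8 CD2 at day 9) held it at 153 CPM. It was at least 7396-fold higher in PIP than in MEF (edgeR adjusted p = 0.00721; 0.0165 without the day 9 library). Against cDC2 the difference was -0.28 ± 1.24 on the log2 scale (adjusted p = 0.863), and it turned to 0.42 without the day 3 library and was -1.83 without the day 9 library. With day 9 as a covariate, which sets the day 3 level against cDC2, it was -1.84 (adjusted p = 4.76e-04). The cDC2 value thus lay between the PIP days, and the wide error leaves a large difference in either direction undetected. Other Cd209 genes were also present in PIP: Cd209e at 16.8 and 140.4 CPM and Cd209d at 9.55 and 123 CPM, with 0 UMIs of both in MEF and 0.385 and 5.99 CPM in cDC2. The Cd209e level was not particular to PIP, since the SI8 CD2 library of day 9 held 138 CPM. Family members are near-identical in places, so the split between them is uncertain.

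**Figure D1:**
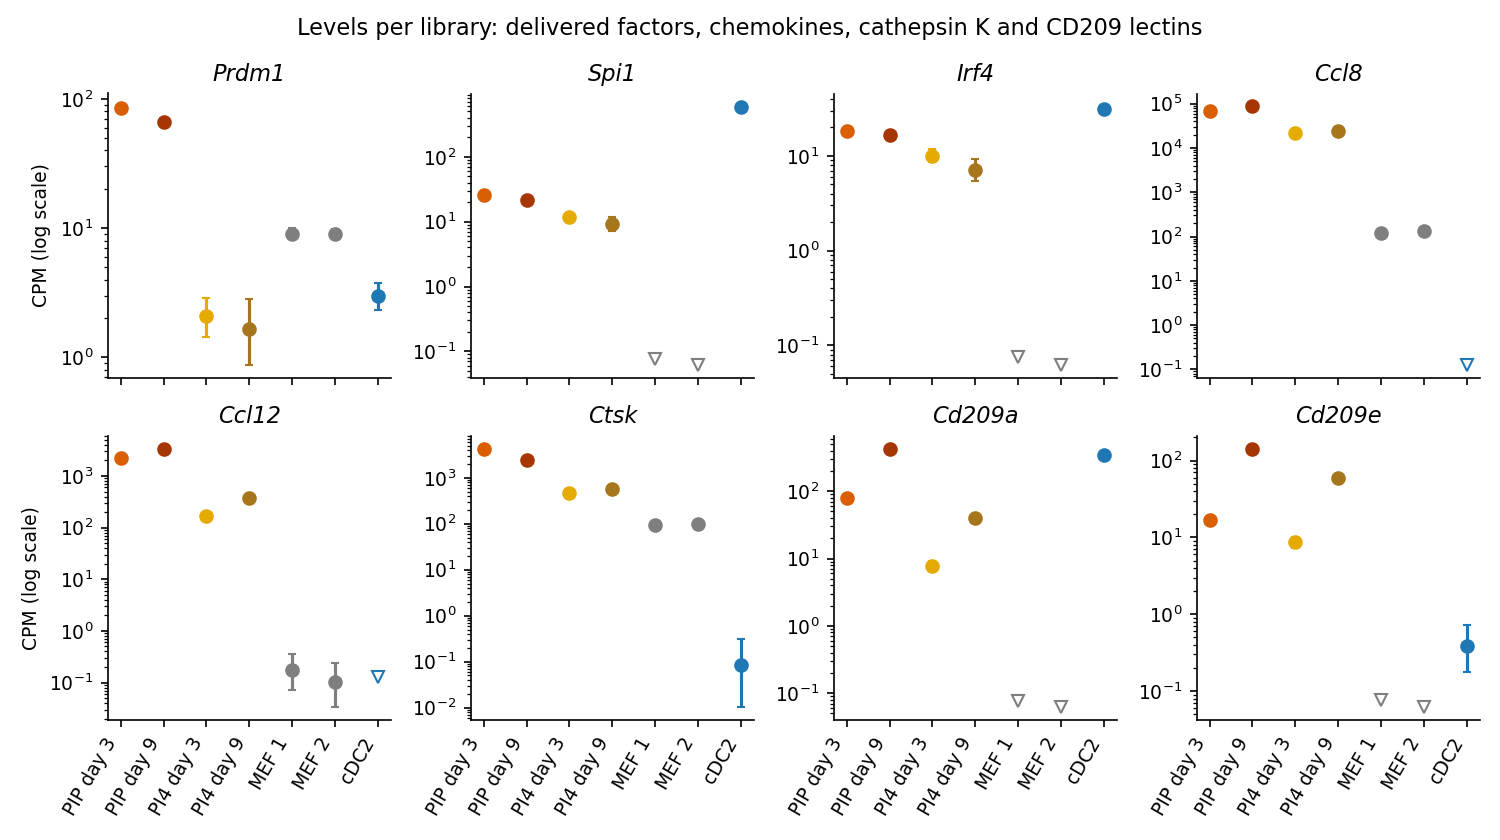
CPM (log scale) of the delivered factors, Ccl8, Ccl12, Ctsk, Cd209a and Cd209e in each of the 7 libraries of the fit; bars are exact Poisson 95% intervals, and open triangles mark a library with 0 UMIs, drawn at the limit that a count of 0 allows. Ccl8 stood at 69734 and 86839 CPM in PIP against 123 and 135 CPM in MEF, and Cd209a at 80.6 and 426 CPM in PIP against 342 CPM in cDC2.

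The 250 bases upstream of the start of these 4 genes were printed because Ccl8, Ccl12, Ctsk and Cd209a are the chemokine, protease and lectin genes described above and the delivered factors bind known sequence elements. Sequences come from RefSeq (GRCm38.p6), are written 5′ to 3′ along the gene, and have motif matches in capitals. The motifs were the ETS core GAGGAA, the ETS-IRF composite GGAANNGAA and the BLIMP1-type element GAAAGTGAA, searched on both strands; a match to the composite can share its GGAA with an ETS core.
Ccl8: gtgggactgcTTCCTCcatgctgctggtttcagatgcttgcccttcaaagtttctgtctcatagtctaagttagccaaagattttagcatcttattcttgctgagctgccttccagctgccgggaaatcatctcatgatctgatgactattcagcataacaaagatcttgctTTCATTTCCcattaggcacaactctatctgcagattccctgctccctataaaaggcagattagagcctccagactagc
Ccl12: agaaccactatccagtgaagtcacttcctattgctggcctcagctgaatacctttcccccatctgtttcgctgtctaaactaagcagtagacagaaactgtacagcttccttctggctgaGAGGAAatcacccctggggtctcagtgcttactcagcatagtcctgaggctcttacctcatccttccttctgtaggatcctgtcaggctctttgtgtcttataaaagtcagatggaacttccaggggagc
Ctsk: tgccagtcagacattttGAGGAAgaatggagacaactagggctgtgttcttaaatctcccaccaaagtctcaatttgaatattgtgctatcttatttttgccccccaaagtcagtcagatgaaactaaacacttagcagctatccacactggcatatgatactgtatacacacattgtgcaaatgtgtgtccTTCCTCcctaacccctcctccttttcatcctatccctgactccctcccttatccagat
Cd209a: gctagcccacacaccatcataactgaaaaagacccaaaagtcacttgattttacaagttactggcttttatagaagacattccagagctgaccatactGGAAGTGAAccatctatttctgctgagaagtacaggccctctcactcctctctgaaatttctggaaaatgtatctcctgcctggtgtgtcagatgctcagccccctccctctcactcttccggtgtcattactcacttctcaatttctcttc
The windows lie at chr11:82114935-82115184 (+ strand) for Ccl8, chr11:82101595-82101844 (+) for Ccl12, chr3:95498960-95499209 (+) for Ctsk and chr8:3748985-3749234 (- strand) for Cd209a. The composite was found in Ccl8, on the other strand from -78 to -70 relative to the start, and in Cd209a, on the gene's strand from -152 to -144. The ETS core was found in Ccl8, Ccl12 and, at 2 places, Ctsk. The BLIMP1-type letters were in none of these windows. Of 32851 mouse promoter windows of the same length, 23.3% held the ETS core, 6.99% the composite and 0.481% the BLIMP1-type element, and a match is not shown to be a bound site.

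Between PIP and MEF, 4025 genes were called higher in PIP (23.8% of 16929 tested) and 3947 lower (23.3%). Without MEF 1 or MEF 2 the 7972 calls in all became 2829 and 2894. Against cDC2, 5189 were called higher (30.7%) and 4561 lower (26.9%). Counts of list members below are to be read against these shares. The median log2 difference over all genes was -0.00 from MEF and 0.20 from cDC2. Values against the 2 references share the PIP libraries and are given side by side. With all 21 libraries in the fit, which then shares 1 estimate of spread over very different cells, 37 of the 99 genes named here and called against MEF were no longer called, and 6 of 40 against cDC2. Besides Prdm1 and Ctsk, those lost against MEF included Col1a2, Sparc, Fn1, Tagln, Dcn and Postn, the leukocyte genes Tyrobp, Cd74 and Id2, the lysosomal genes Ctsd, Ctsb, Ctsa, Lgmn and Cst3, Mmp9 and Acp5, and Il6, Cxcl1, Ifit2 and Ifit3 (edgeR adjusted p = 0.0519 to 0.352), while Tpm1 lay just at the threshold. Against cDC2 they were Prdm1, Ffar2, Ifnb1, Itgam, Flt3 and Cadm1 (0.0505 to 0.369).

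Fibroblast and matrix genes were lower in PIP than in MEF almost throughout. Of 22 genes, 21 were called lower and 0 higher, with a median difference of -4.28 on the log2 scale. The list summed to 1586 and 1642 CPM in PIP, against 32258 CPM or more in MEF, and to 15.6 CPM in cDC2. Against cDC2, 21 of the 22 were called higher in PIP, with a median of 6.74 when genes with 0 UMIs in cDC2 are placed at their bound. PIP cells had thus lost most of the fibroblast transcript load relative to MEF and still carried far more of it than cDC2, so the label of fibroblast rests on the starting cell rather than on the level of its markers.

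The loss was uneven within the list. Col3a1, a fibrillar collagen, was at 16.0 and 2.53 CPM in PIP against 6113 and 6057 CPM in MEF (-9.10 ± 1.11, edgeR adjusted p = 0.00289; -11.10 without the day 3 library and -8.29 without day 9). Lum, the collagen-binding proteoglycan lumican, was at 0.184 and 0.813 CPM against 666 and 625 CPM (-10.12 ± 1.13, adjusted p = 0.00229; -9.50 and -11.47 without the day 3 and day 9 libraries). Lox, which cross-links collagen, was at 3.08 and 2.67 CPM against 1372 and 1295 CPM. These 3 genes were near the bottom of the scale in PIP, while other matrix genes kept a sizeable level. Col1a2 was at 329.7 and 387 CPM in PIP against 4701 and 4562 CPM in MEF (-3.48 ± 0.32, adjusted p = 0.00147), although its partner chain Col1a1 was at 49.8 and 38.3 CPM against 5437 and 5409 CPM (-6.72 ± 0.26). Sparc, a matrix glycoprotein, was at 874 and 754 CPM against 5205 and 5214 CPM (-2.46 ± 0.18). The receptors Pdgfra and Pdgfrb, which receive growth signals in mesenchymal cells, were at 4.81 and 5.38 CPM and at 15.8 and 15.1 CPM in PIP, against at least 85.2 CPM of each in MEF. Thy1, a surface glycoprotein of fibroblasts and T cells, was the member not called, at 24.4 and 19.6 CPM against 39.1 and 38.8 CPM (adjusted p = 0.344; 0.0492 without PI4 day 9). Calls of 2 members turned on single libraries: Dcn (decorin) had an adjusted p of 0.0159, and of 0.0566, 0.0567 and 0.0528 without MEF 1, MEF 2 and PIP day 3. Postn (periostin) had an adjusted p of 0.0232, and of 0.0768, 0.0754 and 0.100 without the same libraries. Without PIP day 9 both differences were larger, at -7.12 for Dcn and -5.09 for Postn against -5.49 and -4.13 in the full fit.

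The contractile genes did not move as a block. Of 8 tested, 1 was called higher and 2 lower than in MEF, and all 8 were called higher than in cDC2. Cald1, the actin-binding caldesmon, was at 666 and 724 CPM in PIP, at 976 and 960.2 CPM in MEF and at 0 in cDC2; the difference from MEF was -0.27 ± 0.15 (edgeR adjusted p = 0.204), and PIP was at least 5408-fold higher than cDC2. Tagln (transgelin) was lower than in MEF, at 24.8 and 13.1 against 149.6 and 144 CPM (-2.72 ± 0.36, adjusted p = 0.00350; -3.35 without PIP day 3). Tpm1, a tropomyosin, was at 232 and 190.1 CPM against 1021 and 998 CPM (-2.03 ± 0.21). The 1 gene called higher was Actg2, an enteric smooth muscle actin, at only 0.986 and 0.601 CPM, and its call was lost without PIP day 3, either MEF library or either PI4 library (adjusted p = 0.0501 to 0.184).

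Among the genes with the largest falls relative to MEF, Cxcl5, a neutrophil-attracting chemokine, was at 1.16 and 2.24 CPM in PIP against 7478 and 7541 CPM in MEF (-11.91 ± 0.48, edgeR adjusted p = 3.37e-04). Cxcl15, another chemokine, had 0 UMIs in PIP and 112 and 107 CPM in MEF, at least 5885-fold lower (adjusted p = 0.00114). H19, an imprinted non-coding RNA of embryonic tissue, was at 0.973 and 0.601 CPM against 1328 and 1178 CPM (-10.41 ± 0.83). Cxcl5 and H19 were abundant in MEF and Cxcl15 much less so, and all 3 were close to absent in both PIP libraries. Aspn, the matrix proteoglycan asporin, followed at -10.69 ± 0.82. Chl1, a cell adhesion molecule, Hp (haptoglobin) and Fxyd1 (phospholemman) differed by -12.24 ± 0.44, -12.02 ± 1.32 and -11.92 ± 0.66, each resting on at most a few UMIs in PIP. These 3 values moved with the PIP library kept: to -11.50, -11.18 and -11.18 without day 3, and to -14.44, -16.15 and -14.12 without day 9.

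General leukocyte genes were switched on in part. Of 17 pan-haematopoietic genes, 13 were called higher than in MEF and 1 lower, with a median of 5.99 at the bound, but 0 were called higher and 16 lower than in cDC2, with a median of -5.92. Cd52, a small leukocyte surface glycoprotein, was at 383 and 813 CPM in PIP, against 1 UMI in all MEF cells (pooled ratio 53407, counting interval 9585 to 2109499.9) and 3481 CPM in cDC2 (edgeR adjusted p = 0.0196 for PIP lower; 0.0645 without PIP day 3). Cd53, a leukocyte tetraspanin, was at 50.4 and 178 CPM against 228 CPM in cDC2 (-0.84 ± 0.77, adjusted p = 0.385; -1.93 without day 9). Cd52 and Cd53 were the members nearest to their cDC2 levels. Ptprc was at 5.89 and 7.68 CPM in PIP, at 0 in MEF and at 1682 CPM in cDC2 (-7.76 ± 0.42, adjusted p = 4.15e-04). Tyrobp, the signalling adaptor DAP12, was at 2.59 and 15.4 CPM against 1927 CPM, and Laptm5, a leukocyte lysosomal protein, at 4.39 and 9.02 CPM against 987 CPM. Fcer1g, an Fc receptor subunit, was at 0.395 and 0.860 CPM in PIP, within reach of the 0.404 and 0.542 CPM of MEF, and at 1223 CPM in cDC2. The member called lower than in MEF was Arhgdib, a regulator of the cytoskeleton that these MEFs already held at 215 and 219 CPM, at 45.1 and 84.0 CPM in PIP (-1.55 ± 0.28, adjusted p = 0.00889).

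Of 12 cDC2 genes, 7 were called higher than in MEF and 0 lower, and 0 were called higher and 9 lower than in cDC2. Beside Cd209a, the genes not called against cDC2 were Clec12a, an inhibitory lectin receptor, and Ccr2, the chemokine receptor that answers Ccl12. Clec12a was at 39.1 and 105 CPM in PIP, at 0 in MEF and at 56.4 CPM in cDC2 (0.53 ± 0.58 against cDC2, edgeR adjusted p = 0.471; 1.00 with adjusted p = 0.0455 without PIP day 3, and -0.28 without day 9). Ccr2 was at 30.9 and 71.6 CPM in PIP and 86.7 CPM in cDC2 (-0.58 ± 0.72, adjusted p = 0.520; -1.24 without day 9, and -1.32 with adjusted p = 0.00315 with day 9 as a covariate). The integrins that the cDC2 sort used were low: Itgax (CD11c) was at 14.1 and 14.4 CPM against 293 CPM (-4.17 ± 0.51, adjusted p = 0.00333), and Itgam (CD11b) at 18.3 and 39.6 CPM against 93.2 CPM (adjusted p = 0.0336; 0.0710 and 0.0768 without PI4 day 3 and day 9). Flt3, the growth factor receptor of the DC lineage, and Clec4a4, a cDC2 lectin, had 0 UMIs in both PIP libraries against 135 and 69.3 CPM, at least 7257-fold and 3718-fold lower. Clec10a was at 0.526 and 0.177 CPM against 38.5 CPM in cDC2; its call against MEF (0 UMIs, adjusted p = 0.0201) was lost without either MEF library (0.0617 and 0.0678) or either PI4 library (0.0562 and 0.0530).

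The antigen presentation machinery was barely engaged. Of 12 MHC class II genes, 8 were called higher than in MEF and 0 lower, while all 12 were called lower than in cDC2, with a median of -7.19. Cd74, the invariant chain, was at 514 and 306 CPM in PIP, at 16.9 and 17.8 CPM in MEF and at 22751 CPM in cDC2 (4.79 ± 0.55 from MEF, edgeR adjusted p = 0.00243; -5.58 ± 0.60 from cDC2). H2-Aa, an MHC class II chain, was at 22.4 and 25.2 CPM against 9147 CPM in cDC2 (-8.39 ± 0.31, adjusted p = 1.50e-04), with 1 UMI in all MEF cells. Ciita, the master activator of these genes and a BLIMP1 target in B cells, was at 1.74 and 1.00 CPM in PIP, with 2 UMIs in MEF, and at 471 CPM in cDC2 (-8.22 ± 0.65). Ctss, the protease that trims the invariant chain, reached 49.3 and 128 CPM against 1024 CPM. H2-Oa and H2-Ob, subunits of a modulator of peptide loading, had 1 and 0 UMIs in PIP, against 476 and 214 CPM; H2-Ob was at least 11494-fold lower than in cDC2.

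Of the costimulation and maturation genes, 5 of 10 were called higher than in MEF and 1 lower, and 2 were called higher and 6 lower than in cDC2. Cd40, which receives the T cell help signal, was at 78.8 and 50.5 CPM in PIP, at 0.227 and 0.417 CPM in MEF and at 54.3 CPM in cDC2 (7.84 ± 0.43 from MEF, edgeR adjusted p = 5.16e-04; 0.46 ± 0.38 from cDC2, adjusted p = 0.326). The ligands of CD28 were low, with Cd86 at 1.72 and 2.72 CPM against 58.0 CPM in cDC2 and Cd80 at 0.263 and 0.247 CPM against 18.1 and 15.3 CPM in MEF and 33.7 CPM in cDC2 (-5.80 ± 0.23 from MEF, adjusted p = 3.37e-04). Il12b, a T cell polarising cytokine subunit, was at 2.49 and 3.71 CPM. Il12b was called higher than in cDC2, where it was at 0.0856 CPM (5.31 ± 0.77, adjusted p = 0.00307), as was Fscn1, an actin-bundling protein, at 60.8 and 88.6 CPM against 6.98 CPM (3.61 ± 0.46, adjusted p = 0.00205). Fscn1 was at 91.3 and 88.6 CPM in MEF. Icam1, an adhesion molecule, was at 100.5 and 87.2 CPM in PIP, 14.7 and 12.9 CPM in MEF and 108 CPM in cDC2.

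Of 13 cDC1 genes, 9 were called higher than in MEF and 1 lower, and 3 higher and 7 lower than in cDC2. The largest was Cadm1, an adhesion molecule of cDC1 and many other cells, at 34.7 and 32.8 CPM in PIP, 0.101 and 0.0834 CPM in MEF and 3.81 CPM in cDC2 (8.69 ± 0.80 and 3.34 ± 0.75, edgeR adjusted p = 0.00146 and 0.0132). Id2, a helix-loop-helix factor of DCs and other leukocytes, was at 62.0 and 184 CPM against 217 CPM in cDC2. Tlr3, the double-stranded RNA receptor, was the gene lower than in MEF, at 0.750 and 1.08 CPM against 24.2 and 22.3 CPM (-4.45 ± 0.40, adjusted p = 0.00135). For the pDC list, 2 of 9 tested genes were called higher and 1 lower than in MEF, and 1 higher and 4 lower than in cDC2.

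Of 18 macrophage and monocyte genes, 7 were called higher than in MEF and 0 lower, and 2 were called higher and 6 lower than in cDC2. Csf1r, the macrophage growth factor receptor, was at 59.4 and 24.4 CPM in PIP, 0.454 and 0.479 CPM in MEF and 85.2 CPM in cDC2 (6.72 ± 0.59 from MEF, edgeR adjusted p = 0.00130; 5.83 without PIP day 3). Against cDC2 the adjusted p of Csf1r was 0.224, and 0.00285 without PIP day 3. Cd68, a lysosomal membrane protein of phagocytes, was at 31.7 and 25.3 CPM against 2.52 and 2.46 CPM in MEF (3.74 ± 0.21). Markers of mature macrophages were at or near 0: Adgre1 (F4/80) at 0.118 and 1.38 CPM, Lyz2 (lysozyme) at 0.0395 and 1.04 CPM against 643 CPM in cDC2, and Mrc1 at 0.0395 and 0 CPM. C1qb, a complement subunit, was at 5.43 and 24.4 CPM against 0 in MEF, and its call (adjusted p = 0.0170) was lost without MEF 1 (0.0641) or MEF 2 (0.0656).

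Most lysosomal proteins were higher in PIP than in both references. Of 10 genes, 8 were called higher and 2 lower than in MEF, and 9 were called higher and 0 lower than in cDC2, with medians of 1.72 and 3.19 on the log2 scale. The list summed to 19896 and 21629.7 CPM in PIP, at least 6936 CPM in MEF and 3183 CPM in cDC2. Ctsd, the aspartic protease cathepsin D, was at 4072 and 6298 CPM in PIP, 858 and 843 CPM in MEF and 43.6 CPM in cDC2 (2.81 ± 0.25, edgeR adjusted p = 0.00132, and 7.08 ± 0.42). Lgmn (legumain), which activates other cathepsins, was at 637 and 778 CPM against 74.5 and 75.3 CPM in MEF (3.45 ± 0.43, adjusted p = 0.00310). Cst3, a secreted cathepsin inhibitor, was at 6356 and 6002 CPM against 2008 and 2002 CPM. Those lower than in MEF were Ctsl, at 494 and 456 against 1288 and 1362 CPM, and Lamp2; both calls were lost without a MEF library (Ctsl 0.0551 and 0.0646, Lamp2 0.177 and 0.192), and that of Lamp2 also without PIP day 3 (0.0567).

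Genes of osteoclasts, in which Ctsk is a defining protease, were higher in part. Of 9 tested, 6 were called higher and 1 lower than in MEF, and 3 higher and 3 lower than in cDC2. Dcstamp, which mediates osteoclast fusion, was at 7.35 and 12.8 CPM in PIP and had 0 UMIs in MEF and in cDC2 (at least 294-fold and 78.4-fold higher; edgeR adjusted p = 0.00132 and 0.00193). Mmp9, a secreted gelatinase, was at 49.2 and 78.3 CPM against 7.19 and 6.04 CPM in MEF (3.47 ± 0.35) and 13.3 CPM in cDC2. Acp5, the tartrate-resistant phosphatase of osteoclasts, was at 18.0 and 12.7 CPM against 3.28 and 3.52 CPM in MEF and 141 CPM in cDC2. Oscar, an osteoclast receptor, was at 21.1 and 7.95 CPM, with a call against MEF (adjusted p = 0.0101) lost without MEF 1 (0.0808) or MEF 2 (0.0786). The defining gene Calcr, the calcitonin receptor, had 0 UMIs in PIP, Atp6v0d2 was at 0.0395 and 0.342 CPM, and Itgb3 was lower than in MEF (-2.94 ± 0.42).

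**Figure D2:**
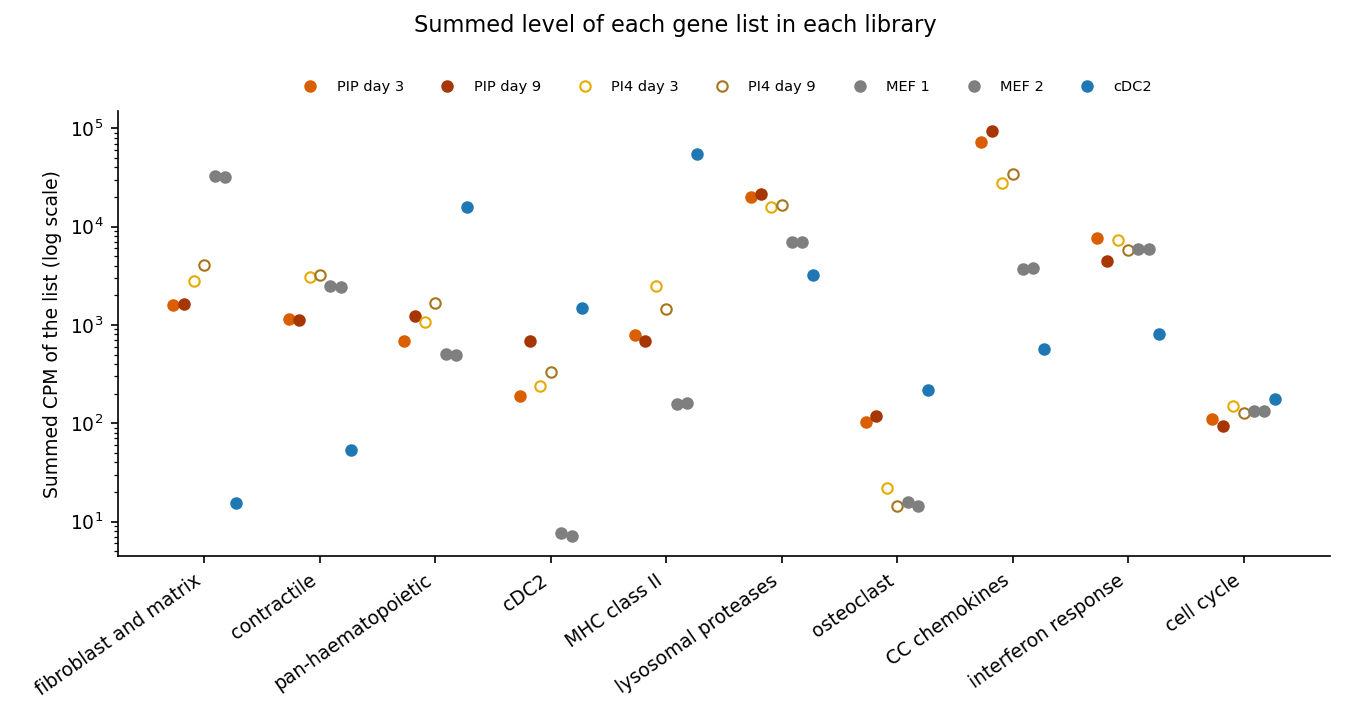
Summed CPM (log scale) of 10 gene lists in each library of the fit, with PI4 as open circles. PIP lay between MEF and cDC2 for the fibroblast and matrix list (1586 and 1642 CPM) and the pan-haematopoietic list (688 and 1240.5 CPM). The same held for the cDC2 list (188 and 679 CPM, of which Cd209a made up 80.6 and 426 CPM). PIP lay above both for the lysosomal list and the CC chemokines (73214 and 93009 CPM).

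The CC chemokine list was dominated by Ccl8. Of 12 genes, 5 were called higher and 1 lower than in MEF, and 6 higher and 1 lower than in cDC2. Ccl17, which attracts T cells through Ccr4, was at 71.9 and 223 CPM in PIP, 0.883 and 0.792 CPM in MEF and 0.257 CPM in cDC2 (7.64 ± 0.75 from MEF, edgeR adjusted p = 0.00170; 6.70 without day 9). Ccl11, which attracts eosinophils, was at 256 and 681 CPM against 5.40 and 4.81 CPM in MEF, with an adjusted p of 0.00581 that exceeded the threshold without MEF 1 (0.0501) or MEF 2 (0.0509). Ccl2 and Ccl7, the other monocyte-attracting members of the same gene cluster, did not share the high level of Ccl8. Ccl2 was at 302 and 659 CPM in PIP against 1665 and 1703 CPM in MEF (-1.62 ± 0.34, adjusted p = 0.0142; 0.0621 and 0.0656 without MEF 1 and MEF 2). Ccl7 was at 539 and 914 CPM against 1400.1 and 1394 CPM (-0.74 ± 0.28, adjusted p = 0.0733; 0.0301 without PIP day 9), and had 0 UMIs in cDC2.

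Inflammatory cytokines and acute phase genes were divided, with 4 of 11 called higher and 3 lower than in MEF, and 5 higher and 1 lower than in cDC2. Il1b (interleukin-1β) was at 11.5 and 71.8 CPM in PIP, at 0 in MEF and at 183 CPM in cDC2, at least 1217-fold higher than MEF (edgeR adjusted p = 0.00607). Cxcl1, a neutrophil chemokine, was at 58.8 and 88.2 CPM against 517 and 544 CPM in MEF (-2.65 ± 0.24, adjusted p = 0.00138), and Il6 at 0.710 and 2.04 CPM against 17.0 and 17.6 CPM (-3.45 ± 0.51; -4.32 without day 9). Saa3 and Lcn2, acute phase genes of activated fibroblasts, differed widely between the PIP days, at 16.8 and 461 CPM and at 5.0 and 198 CPM, against at least 1943 CPM of each in MEF. Neither was called against MEF (adjusted p = 0.162 and 0.129), although Lcn2 passed without PIP day 9 (0.0494).

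Of 14 tested interferon response genes, 3 were called higher and 4 lower than in MEF, a share near the background, and 10 were called higher and 0 lower than in cDC2. Ifnb1, which encodes interferon β, was at 71.6 and 55.4 CPM in PIP, at 0.278 and 0 CPM in MEF and at 0 in cDC2 (9.14 ± 1.11 from MEF, edgeR adjusted p = 0.00285; 14.49 without MEF 1 and 8.05 without MEF 2). It was at least 494-fold higher than in cDC2 (adjusted p = 0.00515; 0.0585 with all 21 libraries in the fit). Isg15, an interferon-induced ubiquitin-like protein, was at 4510.1 and 2467 CPM against 2379 and 2354 CPM in MEF (adjusted p = 0.129; 0.0249 without PIP day 9). Ifit2 was higher than in MEF, at 705 and 307 against 53.5 and 44.8 CPM, and Ifit3 lower, at 66.0 and 65.0 against 977 and 1005 CPM (-3.70 ± 0.30, adjusted p = 0.00105). The Ifit2 call depended on having both MEF libraries, and its log2 difference was 3.72 without MEF 1 and 3.49 without MEF 2. How reads that match more than 1 Ifit gene were counted was not tested.

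Genes that BLIMP1 is known to repress in B cells were read as a group of 6. Against MEF 2 were called higher and 0 lower, with a median of 1.25, and against cDC2 1 was called higher and 4 lower. Bcl6, a repressor that opposes Prdm1 in B cells, was at 13.7 and 22.9 CPM in PIP, 7.90 and 7.15 CPM in MEF and 55.1 CPM in cDC2; its call against MEF (edgeR adjusted p = 0.00752) was lost without MEF 1 (0.0501) or MEF 2 (0.0583). Id3 was at 75.6 and 308 CPM in PIP, below and above its 229.8 and 231 CPM in MEF, so that its difference from MEF was -0.09 ± 0.57 with both libraries, 0.55 without day 3 and -1.33 without day 9. Myc was at 5.33 and 3.82 CPM against 9.24 and 9.15 CPM in MEF (adjusted p = 0.0700; 0.0434 without PIP day 3).

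In all, 1919 genes were called higher in PIP than in both MEF and cDC2, of which 844 averaged at least 50 CPM in PIP, and 1257 were called lower than in both. BC037156, to which no role is assigned here, was at 767 and 3858 CPM in PIP with 0 UMIs in both references, at least 67530.2-fold and 18003-fold higher (edgeR adjusted p = 0.00333 and 0.00614). Mt3, a metal-binding metallothionein, was at 566 and 619 CPM against 0.0757 and 0.125 CPM in MEF (12.67 ± 0.66) and 0 in cDC2. Nppc, C-type natriuretic peptide, was at 810.2 and 682 CPM against 0.707 and 0.604 CPM in MEF (10.37 ± 1.46) and 0 in cDC2. Unlike Ccl8, which was at 123 and 135 CPM in MEF, these genes were near 0 in both references. Cldn1, a tight junction protein, was at 146 and 206 CPM (12.01 ± 1.09 from MEF; 13.02 without MEF 1 and 11.33 without MEF 2), and Npy (neuropeptide Y) at 29.6 and 159.6 CPM with 0 UMIs in both. Mmp25, a membrane-anchored metalloproteinase of leukocytes, was at 66.0 and 58.5 CPM, with 3 UMIs in MEF (pooled ratio 1813, counting interval 620.1 to 8792). Clic5, a chloride channel family protein, was at 155 and 33.2 CPM against 0.101 and 0.146 CPM in MEF, a call (adjusted p = 0.00735) lost without MEF 1 (0.0649) or MEF 2 (0.0626); without PIP day 3 its difference of 9.77 ± 1.67 was 8.14, and without day 9 it was 10.52.

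Among the remaining genes with the largest gains over MEF, Ms4a6d was at 85.7 and 322 CPM, and Lilr4b and Lilrb4a, inhibitory receptors whose sequences are near-identical, at 105 and 264 CPM and at 40.3 and 190.0 CPM. Klra17, a lectin-like receptor of the Ly49 family, was at 29.6 and 187 CPM. All 4 had 0 UMIs in MEF, were at least 5959-fold, 5391-fold, 3363-fold and 3157-fold higher in PIP (edgeR adjusted p = 0.00313, 0.00174, 0.00419 and 0.0114), and remained called on the day 3 library alone (0.00660, 0.00522, 0.00623 and 0.0246). In cDC2 they were at 9.63, 6.55, 30.2 and 7.45 CPM. Against cDC2, the largest gains beside Ccl8, Ccl12, BC037156, Nppc and Mt3 were Tm4sf1, a tetraspanin-like surface protein of mesenchymal and endothelial cells, at 709 and 746 CPM, Ccl7 and Cald1, all with 0 UMIs in cDC2 and at least 5664-fold, 5659-fold and 5408-fold higher. The largest losses were of genes with 0 UMIs in both PIP libraries: Napsa, an aspartic protease, Plbd1, and Ffar2, a short-chain fatty acid receptor, at 1027, 676 and 329.6 CPM in cDC2 (at least 55088-fold, 36256-fold and 17678-fold lower). Bin2, Dock2 (a Rac activator of leukocytes) and Gm34084 were also at 0 in PIP, against 173, 152 and 154 CPM.

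Markers of other cell types were low. The B cell list summed to at most 1.5 CPM in PIP, with 0 of 5 genes called against MEF. The T and NK cell list summed to 3.66 and 7.40 CPM, with 1 of 2 tested genes called higher and Cd3d, Cd3e and Nkg7 at 0. The endothelial list summed to 6.06 and 2.32 CPM, with 2 of 4 genes called higher than in MEF. The plasma cell list had 1 of 3 genes called lower and 0 higher than MEF, although Prdm1 is a plasma cell factor, with Mzb1 at 0 UMIs. That gene was Sdc1 (syndecan-1), which made up nearly all of the list's 50.1 and 43.3 CPM and stood at 113 and 109 CPM in MEF (edgeR adjusted p = 0.00968; 0.0669 and 0.0623 without MEF 1 and MEF 2). The neutrophil list reached 17.7 and 160.4 CPM, nearly all of it S100a8, since Mpo was at 0 and S100a9 at 0 and 0.0589 CPM. The epithelial list reached 18.7 and 25.9 CPM, of which Krt18 made up 16.2 and 25.6 CPM while Epcam was at 0.250 and 0.141 CPM. Of 18 cell cycle genes, 2 were called higher and 3 lower than in MEF, and 3 higher and 7 lower than in cDC2.

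RNA quality and sex-linked transcripts moved with the comparison. Gm42418, AY036118 and Lars2, which rise with ribosomal RNA carry-over, summed to 3158 and 6796 CPM in PIP, 836 and 764 CPM in MEF, 7219 CPM in cDC2, and 11744 and 34732 CPM in PI4, and 3 of 3 were called higher than in MEF. These calls were lost without MEF 1 or MEF 2 (edgeR adjusted p = 0.0551 to 0.0986 over Gm42418, AY036118 and Lars2), and that of AY036118 also without PIP day 9 (0.0633). Of 5 stress genes, 1 was called higher and 2 lower than in MEF, and of 5 sex-linked genes 4 were called lower. Against cDC2, 4 of the 5 sex-linked genes were called higher and 1 lower. Xist was at 116 and 143 CPM in PIP against 247 and 233 CPM in MEF. In the 300 and 410 PIP cells with at least 5 UMIs of Y-linked genes, Xist was at 2.24% and 3.86% of its level over all cells of the library. Each PIP library thus held Y-positive cells with little Xist. The part of RNA quality and of the mix of embryos in the differences from MEF was not tested.

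Single cells showed which genes were shared by nearly all PIP cells. Each cell was thinned to 5000 UMIs, which left out 4 PIP cells, 0 MEF cells and 46 cDC2 cells. Ccl8 was then detected in all 1322 PIP cells of day 3 and all 1186 of day 9, against at most 21.2% of the cells of a MEF library and 0 of 1835 cDC2 cells. Ctsk was detected in 96.5% (95% interval 95.4 to 97.4) and 85.2% (83.0 to 87.1) of PIP cells, against 29.4% and 30.4% of MEF cells. Ccl8 transcripts were thus found in every thinned PIP cell at both days, and Ctsk transcripts in most. No cell type that should lack Ccl8 was present in the PIP libraries, so its free RNA was not measured. The 2.24% and 3.86% given above are for Xist, a different RNA, and need not hold for Ccl8. The 5% of PIP cells with the least Ccl8 reached up to 23083 and 24956 CPM, and the part of free RNA in these values was not tested. For Ctsk, the lowest 5% of PIP cells reached up to 228 and 80.1 CPM, against library levels of 4302 and 2385 CPM. Whether free RNA gave the Ctsk UMIs of such cells was not tested. Ccl12 was found in 90.3% and 91.7% of PIP cells and in at most 0.0489% of the cells of any reference library.

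Other genes were found in a part of the cells. Cd209a was detected in 17.5% (15.5 to 19.7) of PIP cells at day 3 and 48.6% (45.7 to 51.5) at day 9, against 45.8% of cDC2 cells and 0 in MEF; unthinned, the shares were 48.0%, 87.1% and 58.5%. Cd53 was detected in 18.2% and 50.8% and Cd52 in 63.4% and 72.3% of PIP cells. Ptprc was detected in 2.50% and 3.04% of PIP cells, 99.3% of cDC2 cells and 0 MEF cells; unthinned, in 11.2%, 14.2% and 99.8%. Among matrix genes, Col1a2 was detected in 61.8% and 66.9% and Sparc in 85.7% and 79.7% of PIP cells, but Col3a1 in 5.75% and 1.18%, while each was in 99.7% or more of MEF cells. H2-Aa was detected in 5.30% and 7.08% and Itgax in 7.19% and 6.32% of PIP cells, against all 1835 and 73.6% of cDC2 cells. Cd74, the invariant chain of MHC class II, was detected in 56.5% and 42.7% of PIP cells (94.6% and 89.1% unthinned) and in 7.82% and 7.93% of MEF cells. Ptprc, Col3a1 and H2-Aa were therefore each detected in a minority of PIP cells.

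**Figure D3:**
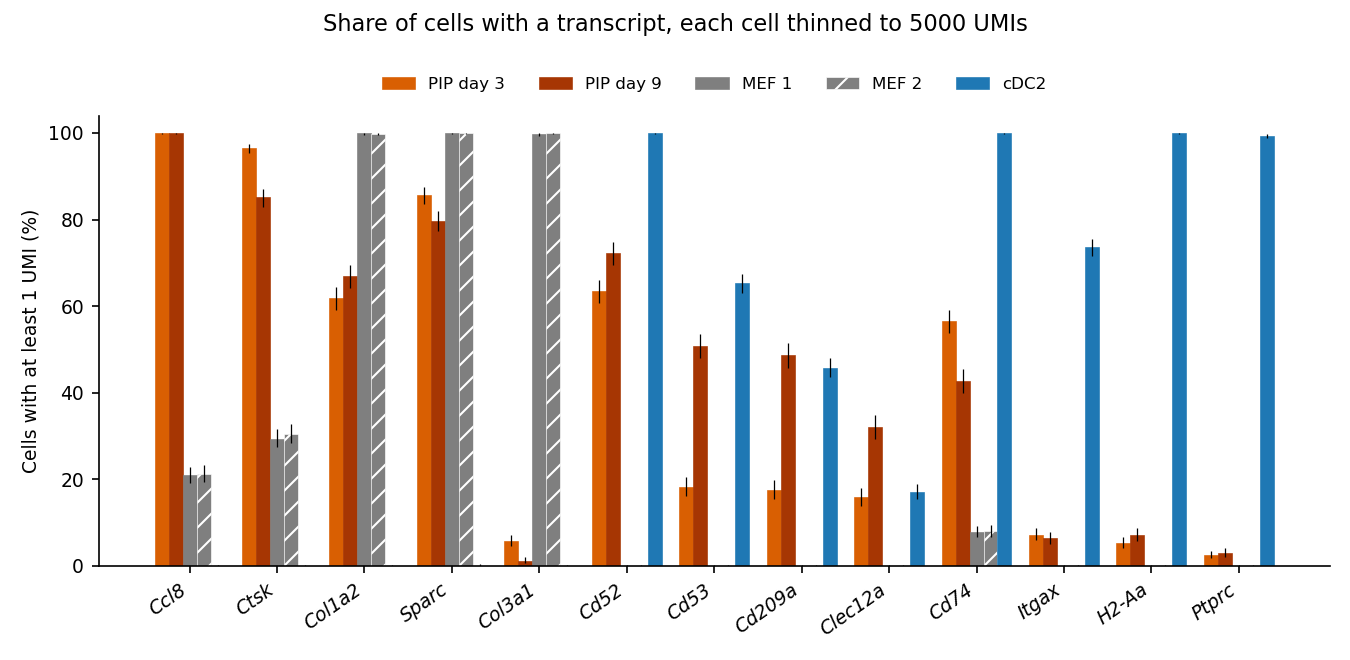
Share of cells (%) with at least 1 UMI of each gene after thinning every cell to 5000 UMIs, by library; lines are exact binomial 95% intervals. Ccl8 was found in every PIP cell, Cd209a 17.5% and 48.6% in PIP against 45.8% in cDC2, and Ptprc 2.50% and 3.04% against 99.3%.

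Fibroblast and leukocyte transcripts were found together under the same barcodes in a part of the PIP cells. With at least 3 UMIs of both lists required in a cell thinned to 5000 UMIs, 43.4% and 56.4% of PIP cells qualified, but so did 40.6% and 39.0% of MEF cells, because MEFs express Arhgdib and Lsp1. Without these genes, a change made after seeing the data, 34.3% (31.8 to 37.0) and 48.3% (45.4 to 51.2) of PIP cells qualified. In the references, 0 of 2045 and 0 of 1728 MEF cells (at most 0.147% and 0.174%) and 0.327% of cDC2 cells qualified. The genes were removed because MEFs express them, so the low MEF share follows from that choice and is no test. Cd52 alone was detected in 63.4% and 72.3% of thinned PIP cells, and Ptprc in 2.50% and 3.04%. Free RNA is not separated by this measure. With the full list and doublets called by Scrublet left out, the PIP shares were 43.5% and 56.3%. Scrublet called 8 and 4 PIP cells.

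Among PIP cells the level of Ccl8 spread over less than an order of magnitude for most of the population. The 5th percentile, median and 95th percentile were 23083, 68036 and 126789.5 CPM at day 3 and 24956, 80808 and 167738 CPM at day 9, and the highest cell reached 327047 CPM. Ctsk was broader, with a median of 3644 CPM (5th to 95th percentile 228 to 10614) at day 3 and 1162 CPM (80.1 to 8382) at day 9. Cd209a was skewed, with a median of 0 and a 95th percentile of 419.9 CPM at day 3, and 86.5 and 1993 CPM at day 9. At day 9 the Cd209a median was close to the 91.6 CPM of cDC2 cells. Percentiles near 0 depend on the depth of each cell, which was higher in PIP.

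**Figure D4:**
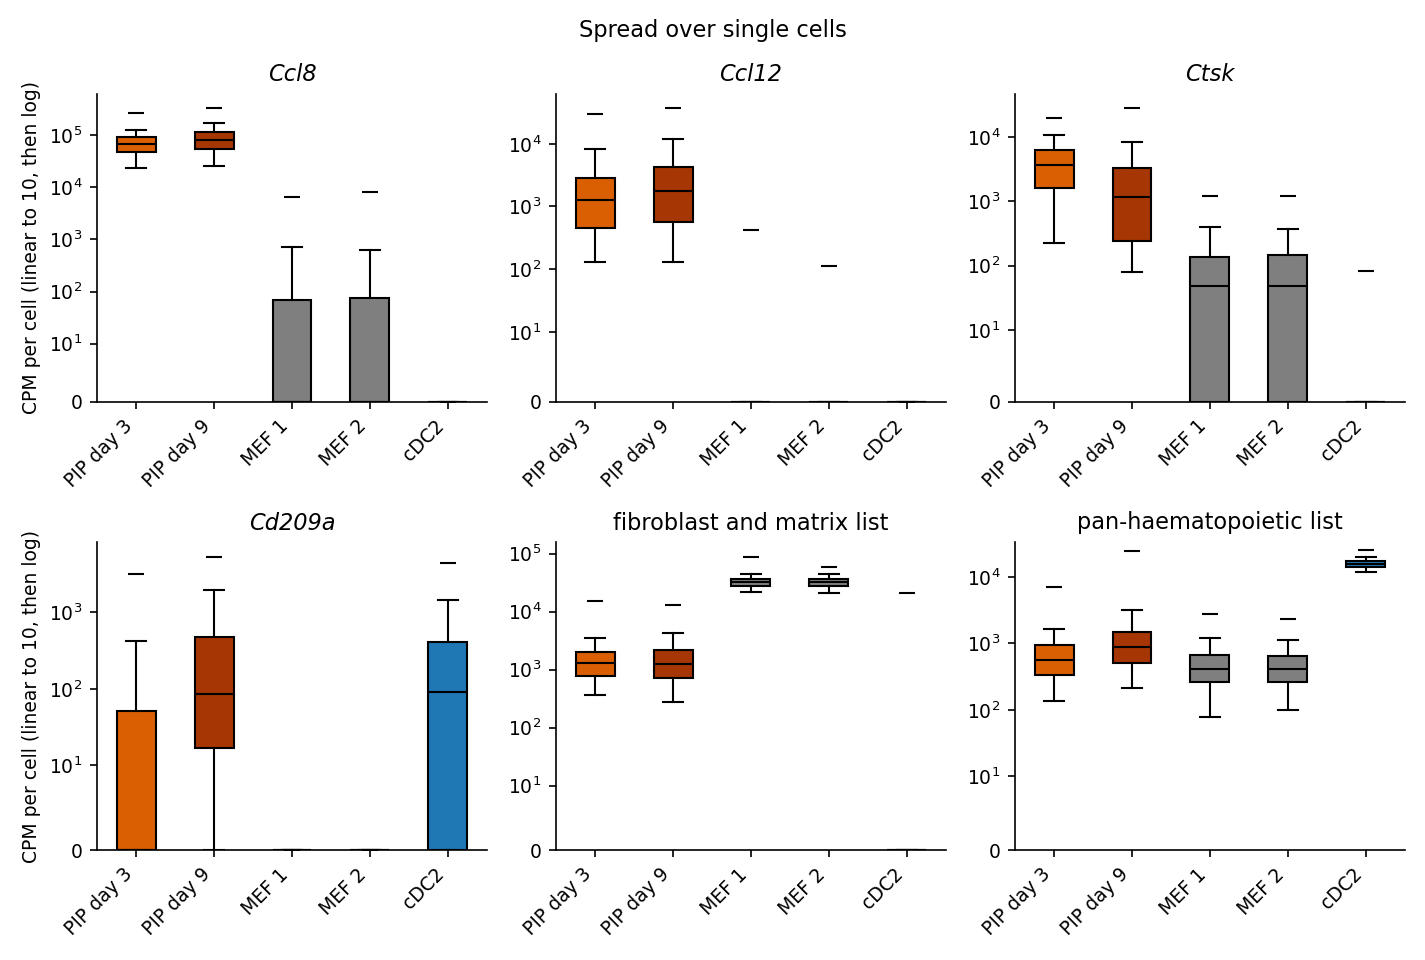
CPM per cell by library (axis linear up to 10 and logarithmic above); boxes span the 25th to 75th percentile with the median as a line, whiskers the 5th to 95th percentile, and the separate tick the highest cell. The Ccl8 boxes of PIP (medians 68036 and 80808 CPM) lie far above MEF, and the Cd209a box of PIP at day 9 (median 86.5 CPM) lies beside that of cDC2 (91.6 CPM).

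Across cells, related genes went together more than the marker genes did. In cells thinned to 20000 UMIs (1276 at day 3, 1143 at day 9), Spearman's rank correlation was 0.36 and 0.48 between Ccl8 and Ccl12 and 0.31 and 0.44 between Cd209a and Cd209e. It was -0.01 and -0.00 between Ctsk and Cd209a, 0.09 and -0.04 between Ccl8 and Ctsk, and -0.17 and -0.12 between Prdm1 and Ccl8. The fibroblast list and the pan-haematopoietic list (without Arhgdib and Lsp1) gave -0.13 and -0.20. Cells of a library share its preparation, the genes of the first 2 pairs are similar in sequence, and Ccl8 takes a share of every cell's UMIs, so these are descriptions only.

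The PIP days differed, with 1 library each and therefore values only. At day 9, Cd209a (80.6 to 426 CPM), Cd209e (16.8 to 140.4 CPM), Lpl, lipoprotein lipase (46.4 to 378 CPM), Mmp12, macrophage elastase (32.0 to 401 CPM), Saa3 (16.8 to 461 CPM) and BC037156 (767 to 3858 CPM) stood higher than at day 3. At day 9, Ctsk (4302 to 2385 CPM), Mfge8, a bridging protein for the uptake of dying cells (1163 to 425 CPM), Dnase1l3, a DNase of DCs and macrophages (214 to 21.6 CPM), and Lce3b (64.0 to 6.01 CPM) stood lower. The Poisson intervals of none of these pairs overlapped, and the genes were chosen after their values were seen. The fibroblast list was nearly the same on both days (1586 and 1642 CPM), while the pan-haematopoietic list was at 688 and 1240.5 CPM. The cDC2 list was at 188 and 679 CPM, of which Cd209a made up 80.6 and 426 CPM. The RNA quality genes summed to 3158 CPM at day 3 and 6796 CPM at day 9, and their part in these values was not tested.

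Clustering of all PIP cells gave 6 clusters, which are described by number. Since the clusters follow the day, library and state of the cells cannot be told apart between clusters of different days. Clusters of the same day share a library. With each day clustered alone, 57.6%, 88.9% and 88.6% of the day 3 cells of clusters 1, 4 and 5 fell into 1 best-matching cluster each. So did 48.9%, 57.5% and 97.5% of the day 9 cells of clusters 2, 3 and 6. All 36 day 3 cells of cluster 6 fell into a cluster of 515 cells that was also the best match of cluster 4. They made up 6.99% of it, so cluster 6 did not stand apart on day 3 alone. With cells thinned to 10000 UMIs, clusters 1 and 5 had the same best match, and so did clusters 2 and 6. Clusters 1, 4 and 5 (557, 498 and 256 cells) held 545, 467 and 255 cells of day 3, and clusters 2 and 3 (534 and 510 cells) held 517 and 504 of day 9. Cluster 6 (157 cells) was the most mixed, with 36 cells of day 3 and 121 of day 9. Leading genes, which set the clusters and are not tested, were as follows. Cluster 3 was led by Cd209e (273 CPM against 25.4 CPM in the rest), AW112010, Cd209d and Cd209a (709.8 against 130.4 CPM), and had the highest Ccl8 (103787 CPM) and the lowest Ctsk (1387 CPM). Cluster 2 was led by Npy, S100a8, Mmp12, Lcn2, Lpl and Saa3 (605 against 144 CPM). Cluster 5 was led by Gm13889, Dnase1l3 and Mfge8 (2775 against 572 CPM) and held Cd74 at 1181 against 326 CPM and Csf1r at 113 against 33.7 CPM. Cluster 4 was led by Lce3b (145 against 7.39 CPM), Cavin2 and Acta2 (116 against 39.1 CPM), and cluster 1 by Diaph3 and Ubash3b. Among day 9 cells alone, Cd209e was at 276 against 38.7 CPM for cluster 3, and Saa3 at 614 against 346 CPM for cluster 2. Among day 3 cells alone, Lce3b was at 156 against 10.1 CPM for cluster 4. There Mfge8 was at 2662 against 805 CPM for cluster 5, and Diaph3 at 118 against 58.3 CPM for cluster 1. Cluster 6 was led by Mmp3 (stromelysin, 421 against 10.1 CPM), Fabp4, Spp1 (osteopontin, 2492 against 150.2 CPM), Mgp and Grem1, and these were also high within each day, with Spp1 at 1612 and 2717 CPM. Mmp3, Spp1 and Mgp are abundant in MEF, at 4257 and 4053, 7358 and 7455, and 4526 and 4609.8 CPM.

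Gene lists also varied over clusters. Ccl8 lay between 67880.2 and 103787 CPM in every cluster. The fibroblast list ran from 1082 CPM in cluster 3 to 2316 CPM in cluster 6, and no cluster approached the 32258 CPM of MEF. The pan-haematopoietic list ran from 624 CPM in cluster 4 to 1659 CPM in cluster 3, where Cd52 alone made up 1253 CPM. Its members Ptprc, Cd53, Laptm5, Coro1a, Fcer1g and Tyrobp were highest in cluster 2, with a sum of 285 CPM against 186 CPM in cluster 3. The MHC class II list ran from 269.9 CPM in cluster 6 to 1638 CPM in cluster 5. The cDC2 list ran from 93.0 CPM in cluster 5 to 1018 CPM in cluster 3. Cd209a, a leading gene of cluster 3, made up 45.3 and 709.8 CPM of these sums. The list of inflammatory cytokines and acute-phase genes ran from 68.5 CPM in cluster 1 to 1909 CPM in cluster 6. All 6 clusters thus had high Ccl8 and a fibroblast list under the MEF level, while Cd209a, Ctsk and the other lists varied between them.

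**Figure D5:**
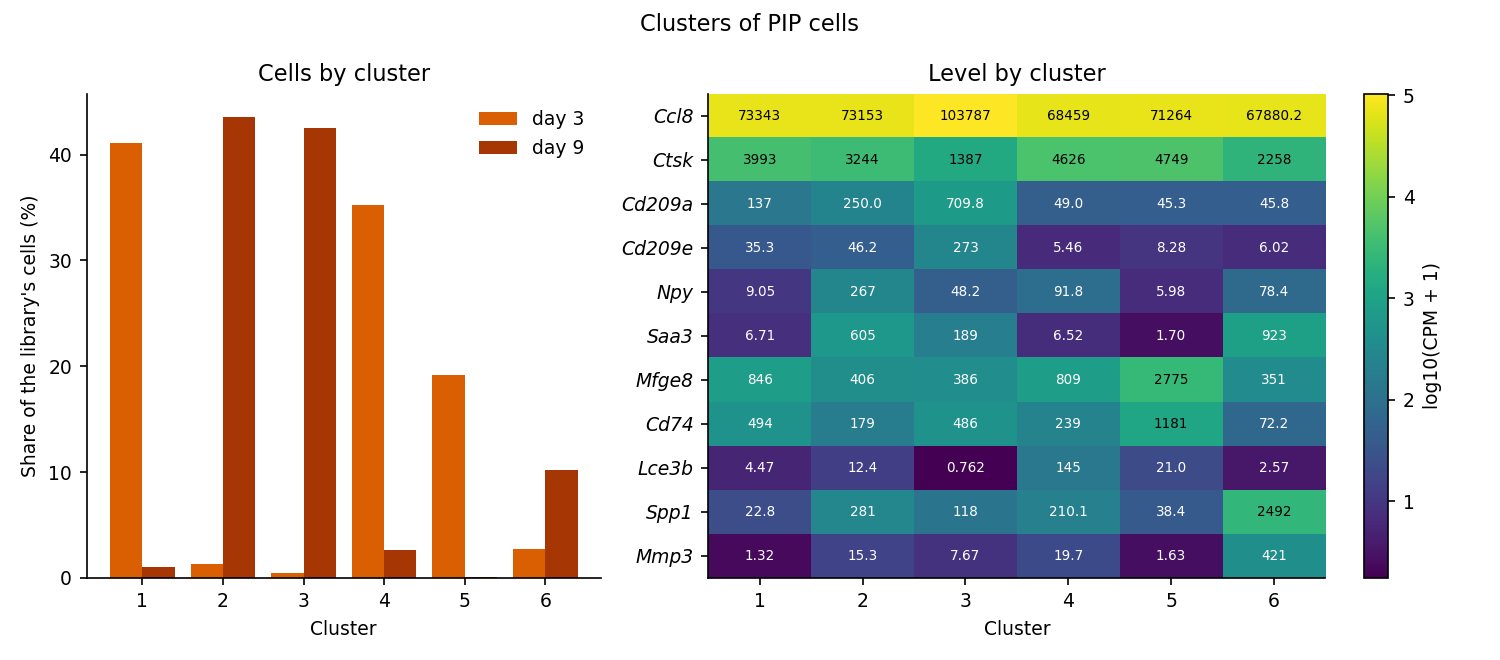
Left, share (%) of the cells of each PIP library in each of the 6 clusters; right, CPM of selected genes in the cells of each cluster, printed in the cell and coloured by log10(CPM + 1). Clusters 1, 4 and 5 are mostly day 3 and clusters 2, 3 and 6 mostly day 9, and Ccl8 is high in every cluster (67880.2 to 103787 CPM).

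PIP was last set against PI4, which asks where the set with Prdm1 differs from PU.1 and Irf4 alone. Of 16929 genes, 232 were called higher in PIP (1.37%) and 391 lower (2.31%). These calls rest on the spread of the whole fit: 17 genes were called without either MEF library, 196 without PIP day 3, 264 without PI4 day 9 and 43 with all 21 libraries (14.0% of them higher), against 3727 with day 9 as a covariate (50.8% higher). PI4 cells were also far shallower, with 406 of 712 cells at day 3 under 5000 UMIs. Their median mitochondrial share was 0.351% and 0.227%, against 3.33% and 2.74% in PIP. Their RNA quality genes reached 11744 and 34732 CPM, against 3158 and 6796 CPM in PIP. The part of depth, mitochondrial share and RNA quality in the differences was not tested. Of the named genes called against PI4, the calls of Prdm1, Cxcl5, Ptn, Hsd17b11 and Cd80 held without any 1 of the PIP, PI4 and MEF libraries, and Hsd17b11 and Olfml2a held with all 21 libraries.

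Apart from the delivered Prdm1 (5.43 ± 0.26 on the log2 scale, edgeR adjusted p = 0.00669; 0.170 with all 21 libraries), the markers of PIP were higher than in PI4 in both libraries. Ccl8 was at 69734 and 86839 CPM in PIP and 21819 and 24094 CPM in PI4 (1.89 ± 0.19, adjusted p = 0.0174; 0.0935 and 0.0932 without MEF 1 and MEF 2, 0.0655 and 0.0784 without PI4 day 3 and day 9). Ctsk was at 4302 and 2385 CPM against 476 and 569 CPM (2.82 ± 0.35, adjusted p = 0.0237; 0.0871 and 0.0869 without MEF 1 and MEF 2, and 0.0796 and 0.0951 without PI4 day 3 and day 9). Ccl12 was at 2255 and 3388 CPM against 167 and 373 CPM (3.50 ± 0.44, adjusted p = 0.0244; 0.0517 to 0.0812 without either PIP or MEF library, and 4.18 without PI4 day 9). Cd209a was at 80.6 and 426 CPM against 7.69 and 40.0 CPM (3.53 ± 1.15, adjusted p = 0.172; 3.52 with adjusted p = 0.00130 with day 9 as a covariate; 4.26, 2.01, 2.77 and 5.11 without PIP day 3, PIP day 9, PI4 day 3 and PI4 day 9). For Ccl8, Ctsk, Ccl12 and Cd209a the PIP and PI4 libraries did not overlap. The calls of Ccl8, Ctsk and Ccl12 depended on single libraries. Cd209a, which was higher than PI4 on each day, was called only with day as a covariate. Mmp9 was at 49.2 and 78.3 CPM against 1.01 and 2.41 CPM (5.45 ± 0.43, adjusted p = 0.0106; 0.0511 and 0.0526 without MEF 1 and MEF 2, and 4.86 and 6.06 without PI4 day 3 and day 9). Ly6c1, a GPI-anchored surface protein, was at 340.2 and 512 CPM against 42.0 and 95.7 CPM (2.75 ± 0.42, adjusted p = 0.0339; 0.0710 to 0.0987 without either PIP or MEF library, and 3.44 without PI4 day 9).

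Among the genes lower in PIP than in PI4, Ptn, the growth factor pleiotrophin, was at 5.97 and 11.5 CPM in PIP and 622 and 605 CPM in PI4 (-6.03 ± 0.34, edgeR adjusted p = 0.00790; 0.288 with all 21 libraries). Cxcl5 was at 1.16 and 2.24 CPM against 71.9 and 102 CPM (-5.56 ± 0.37, adjusted p = 0.00879; 0.389 with all 21 libraries). Hsd17b11, a lipid droplet dehydrogenase, was at 1.85 and 3.44 CPM against 80.7 and 118 CPM (-5.12 ± 0.35, adjusted p = 0.00883; 3.30e-04 with all 21 libraries). Olfml2a, an olfactomedin-domain protein, was at 0 and 0.0236 CPM against 76.5 and 29.3 CPM (adjusted p = 0.00972; 0.0504, 0.0511 and 0.0526 without PIP day 3, MEF 1 and MEF 2). Ptx3, a secreted pentraxin, was at 1.17 and 6.96 CPM against 169 and 385 CPM (-6.00 ± 0.95, adjusted p = 0.0373; 0.0587 to 0.108 without PIP day 3 or any 1 MEF or PI4 library, and -7.66, -5.24 and -5.30 without PIP day 9, PIP day 3 and PI4 day 9). Cd80 was at 0.263 and 0.247 CPM against 7.45 and 6.09 CPM (-4.61 ± 0.23, adjusted p = 0.00669; 0.256 with all 21 libraries). H2-Ab1, an MHC class II chain, was at 6.41 and 8.95 CPM against 67.3 and 81.6 CPM (-3.16 ± 0.21, adjusted p = 0.00879; 0.0511 and 0.0526 without MEF 1 and MEF 2, and 0.126 with all 21 libraries).

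By list, 7 of 8 contractile genes were called lower than in PI4 and 0 higher, with a median of -2.37, and 5 of 22 fibroblast and matrix genes were called lower and 0 higher, with a median of -0.92. Of 12 MHC class II genes, 4 were called lower and 0 higher, with a median of -1.26, while 3 of 9 osteoclast genes and 2 of 10 lysosomal genes were called higher and 0 lower. Of 6 genes that BLIMP1 represses in B cells 0 were called either way, and of 12 cDC2 genes 0 were called, with a median of -0.09. The median over all genes was 0.01.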

How the data were processed

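Cells of 21 droplet single-cell RNA libraries were measured, and 7 were used. The submitters' processing notes name Seurat, mm10 and Cell Ranger 6.0.1. The deposited table of the authors holds raw UMI counts of 24455 genes per cell, with the library in the column name and 0 columns that belong to no library. Doublet removal before deposit is not given in the sources used here, and no further filter on cells was applied. Counts were summed per library and tested with edgeR 4.0.16 (R 4.3.3; TMM scaling, filterByExpr, robust quasi-likelihood), first tested on simulated data; DESeq2 1.42.0 was an alternative. Cells were thinned to 5000 UMIs for shares. PIP cells were clustered with scanpy 1.11.5 and leidenalg 0.10.2 (10000 counts per cell, 2000 genes, 30 components, 15 neighbours, resolution 0.5), and Scrublet marked 67 of 9296 cells as doublets. Named were the markers, delivered factors and members of the gene lists. Also named were the 8 called genes (5 against PI4) with the largest difference in each direction. They were picked among genes with 50 CPM or more in the higher group and no overlap of libraries. Added to these were 10 genes higher than both references and a part of the 8 leading genes per cluster. The cells, markers and gene lists were chosen with earlier results of these data known. A fold against a group with 0 UMIs is a bound with 3 counts over the group. PIP median depth was 57205 and 75762 UMIs per cell, and the smallest detectable level (3 counts) was 0.0395 and 0.0353 CPM. The MEF libraries differed beyond sampling noise (chi-square per degree of freedom 2.46). The PIP days, which are deeper libraries, differed far more, with 314 on the same measure. The MEF pair was thus much closer than the PIP pair, although both stood as replicates in the fit.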

Additional observations from a re-analysis of the deposited data

How the results depend on the processing

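Counts of called genes depended on the estimate of spread. For PIP against MEF (7972 called) the count was 3602 with all 21 libraries and 2829 to 8758 with 1 library left out, the lowest without a MEF library (2829 and 2894). For PIP against cDC2 (9750) it was 5842 with all 21 libraries and 7563 to 10372 with 1 left out. For PIP against PI4 (623, of which 37.2% higher) it was 2202 with DESeq2, 43 with all 21 libraries (14.0% higher), 3727 with day 9 as a covariate (50.8% higher) and 17 to 658 with 1 left out. RLE scaling, no low-count filter, thinned counts, cells with at least 10000 UMIs, doublets left out and, added after seeing the data, totals without Ccl8 moved no such count by 1.5 times. Over all alternatives, 1645 values of genes named against MEF kept direction and call and 93 lost the call, against 734 and 10 for cDC2 and 346 and 110 for PI4. The direction turned for Id3 against MEF (-0.09; 0.55 and -1.33 without PIP day 3 and day 9), Cd209a against cDC2 (-0.28; 0.42 and -1.83) and Clec12a against cDC2 (0.53; 1.00 and -0.28). Co-detection was 18.5% and 28.2% at 5 UMIs of each list, and 34.3% and 48.3% without Arhgdib and Lsp1 (added after seeing the data). Clusters numbered 3 and 12 at resolutions 0.3 and 1.0, 4 on thinned counts, and 5 and 6 with each day alone. Their adjusted Rand indices with the main clusters, where 1.00 is the same grouping, were 0.474, 0.494, 0.493, 0.511 and 0.424. The cause of these changes was not tested, apart from fewer libraries or other cells entering a fit. No paired analysis was possible because the labels give PIP and PI4 no shared replicate numbers; they share days 3 and 9, and the fit with day 9 as a covariate is given above. The PI4 comparison is limited by depth (16767937 and 7882881 UMIs).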
